A study of Mus musculus with 8 samples.

Results

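The 9 genes described here encode the machinery that loads peptides onto MHC class I molecules, together with Nlrc5, and they were picked by symbol from the 53247 genes of the expression table. All 9 were found and all 9 were among the 13850 genes tested. RNA-Seq was done on TAMs (tumor-associated macrophages) from s.c. tumors of LLC, a Lewis lung carcinoma line. There were 4 WT and 4 miR-21 null (miR-21-/-) mouse samples of strain C57BL/6. Mice were implanted at 8 weeks of age, tumors were taken 14 days later, and the labels give an age of 10 weeks. In both genotypes TAMs were obtained by a sort on CD45, CD11b, MHC class II and F4/80, and no sample had another treatment. The miR-21-/- allele is a constitutive deletion, bred to C57BL/6 for several generations, so that it is absent from all host cells and not from TAMs alone, whereas the implanted LLC cells are the same in both genotypes. Replicates are labelled as biological, but 1 miR-21-/- title joins a pair of sample numbers, and the labels do not say whether it is a pool; it was counted as 1 replicate.

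MHC class I molecules show peptides from inside the cell to CD8+ T cells. Peptides cut by the proteasome are carried from the cytosol into the ER (endoplasmic reticulum) by TAP, a transporter made of Tap1 and Tap2. There the aminopeptidase Erap1 trims them, and a complex of tapasin (Tapbp), calreticulin (Calr) and the disulfide isomerase ERp57 (Pdia3) holds the empty class I molecule at TAP until a fitting peptide has bound. Calnexin (Canx) assists the heavy chain before that step, and the tapasin relative TAPBPR (Tapbpl) edits the bound peptide away from TAP. Nlrc5 is a transactivator that acts at the promoters of class I genes and of several of their partners, and it is induced by interferons, as are the TAP and tapasin genes. Calr, Canx and Pdia3 serve glycoproteins in general and are chaperones of every cell.

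The values are CPM, counts per 1e+06 reads. Depth was 20.2 to 33.4 in units of 1e+06 reads, so that the lowest value among the 9 genes stood for 479.8 reads and the highest for 24909. Across genes, Pearson correlations of the log2 values were 0.988 to 0.995 over the 12 within-genotype pairs of samples and 0.97 to 0.981 over the 16 pairs between genotypes. Mir21a was listed at the minimum of 0.0001 CPM in all 8 samples, which gives no check of the genotype labels. Vmp1, the gene next to it, whose transcripts overlap the miRNA precursor, was at 115 to 133 CPM in WT and at 373 to 426 CPM in miR-21-/- samples (log2 fold change 1.67, limma adjusted p = 7.1e-07). Genes that mark the sort were well expressed: Adgre1, which encodes F4/80, had means of 564 ± 19.4 CPM in the WT and 433 ± 27.5 CPM in the miR-21-/- group (SD, n = 4 each), and Itgam, which encodes CD11b, had means of 2052 and 1956 CPM.

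Of the 9 genes, 5 were higher in miR-21-/- TAMs past the threshold (limma adjusted p of no more than 0.005, together with a change of more than 1.5-fold), namely Nlrc5, Tap1, Tap2, Tapbp and Tapbpl. Their CPM means were 1.67 to 1.99 times those of WT. Among all tested genes 2.89% were called higher and 4.23% lower by this rule. Erap1 met the limit on p but not on fold, and no gene of the 9 was called lower. Calr, Canx and Pdia3 had 0.914 to 1.07 times their WT means and did not pass. In RNA from sorted cells in bulk, a higher share of cells that express a gene cannot be told apart from more RNA per cell.

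**Figure D1:**
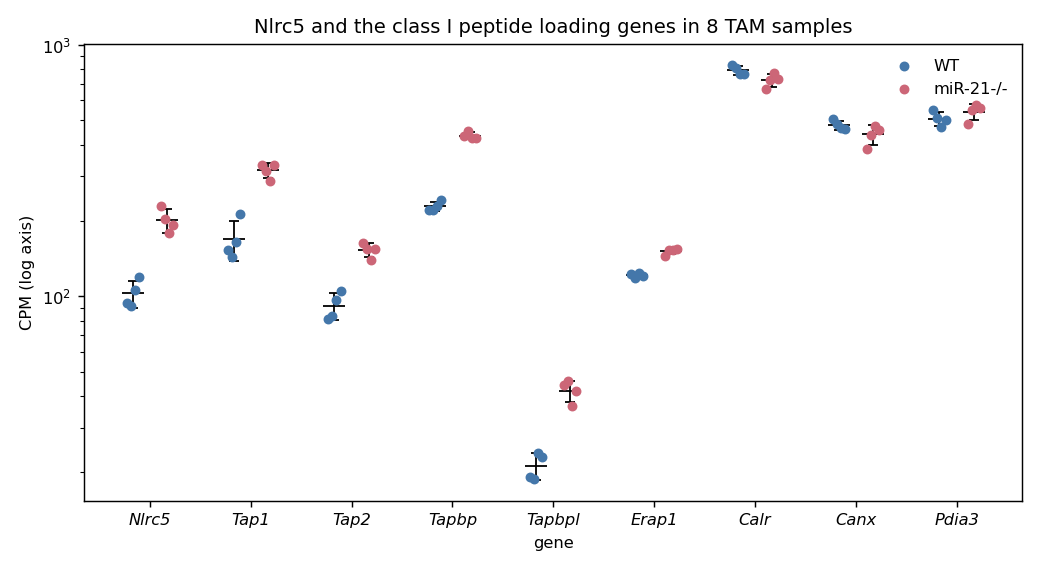
CPM (log axis) of the 9 genes in each of the 4 WT and 4 miR-21-/- TAM samples. Points are samples, horizontal marks are means and bars are SD. The genotypes did not overlap for Nlrc5, Tap1, Tap2, Tapbp, Tapbpl and Erap1, and they overlapped for Calr, Canx and Pdia3.

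Nlrc5 (chromosome 8, 94434356 to 94527272, plus strand, GRCm38) was at 94.4, 91.5, 106 and 119 CPM in WT replicates 1 to 4 and at 229, 203, 179 and 192 CPM in miR-21-/- replicates 1 to 4. The lowest miR-21-/- sample lay above the highest WT sample. The means were 103 ± 12.4 and 200.5 ± 21.3 CPM (SD, n = 4 each). This was a log2 fold change of 0.96 on the log2(CPM + 1) scale (95% interval 0.75 to 1.18, limma adjusted p = 0.000104). This put Nlrc5 at rank 209 of the 13850 log2 fold changes, counted from the highest. All fold changes here are miR-21-/- over WT.

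Tap1 (chromosome 17, 34187553 to 34197225, plus strand) encodes a subunit of the peptide transporter. It was at 152, 144, 165 and 212 CPM in the WT samples and at 331, 313, 287 and 334 CPM in the miR-21-/- samples. WT replicate 4 stood highest of its group in Tap1, as it did in Nlrc5, Tap2 and Tapbp, and was still below each miR-21-/- sample. The means were 168 ± 30.6 and 316 ± 21.6 CPM (SD, n = 4 each). In log2 the fold change was 0.92 (95% interval 0.67 to 1.17, limma adjusted p = 0.000288). Without WT replicate 4 the log2 fold change was 1.04, the highest value when each of the 8 samples was dropped in turn.

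Tap2 (chromosome 17, 34203527 to 34216321, plus strand), the other subunit, was at 80.9, 83.3, 96.8 and 105 CPM in WT and at 163, 154, 139.6 and 155 CPM in miR-21-/- TAMs. The groups were again apart. Its gene model shares 3148 bases with Gm15821, which is on the opposite strand and averaged 3.38 CPM. The log2 fold change was 0.74 (95% interval 0.55 to 0.93, limma adjusted p = 0.000247), the smallest of the 5 that passed, and its interval reached below the fold limit, which is 0.585 in log2.

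The Tap1 gene starts head to head with Psmb9, an immunoproteasome subunit, and its promoter is printed here because both genes rose and share it. RefSeq (GRCm38.p6) places the start sites 226 bases apart on opposite strands, and 275 bases of the 300-base windows (250 before to 50 after the start) are common to both. The Tap1 window is chr17:34187306-34187605 on the plus strand, with the letters CCAAT in capitals. CCAAT, looked for on both strands, was found in 37.4% of 32851 such windows.

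Tap1 promoter: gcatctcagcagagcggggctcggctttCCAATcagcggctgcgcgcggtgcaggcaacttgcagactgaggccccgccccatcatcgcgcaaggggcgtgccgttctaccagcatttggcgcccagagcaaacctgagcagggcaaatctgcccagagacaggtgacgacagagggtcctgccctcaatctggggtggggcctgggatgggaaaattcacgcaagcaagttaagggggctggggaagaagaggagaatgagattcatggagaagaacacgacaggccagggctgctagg

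Psmb9 was at 59.0 ± 12.4 CPM in WT TAMs and rose to 101 ± 8.05 CPM without miR-21 (SD, n = 4 each). The log2 fold change was 0.79 (limma adjusted p = 0.00111). The 5′ ends of Tap1 and Psmb9 in the table overlap by 212 bases on opposite strands, and since no source used here says that counting used strand, reads there could belong to either gene. Promoter sequences were at hand for 6 of the 9 genes, and Nlrc5, Tap2 and Tapbpl had none in the table used.

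Tapbp (chromosome 17, 33915899 to 33929288, plus strand), which encodes tapasin, had the smallest spread of the 5 relative to its level. It was at 221, 220.0, 229 and 241 CPM in WT and at 432, 454, 426 and 426 CPM in miR-21-/- TAMs. The CV (SD over mean) was 4.34% and 3.12%, against 18.2% and 6.82% for Tap1. The means were 228 ± 9.88 and 434 ± 13.5 CPM (SD, n = 4 each). The log2 fold change was 0.93 (95% interval 0.81 to 1.05, limma adjusted p = 3.62e-06). Its gene model in the table also covers Zbtb22 on the same strand, a zinc finger gene at 28.3 CPM on average over the 8 samples, so that some reads could be counted for either.

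Tapbpl (chromosome 6, 125223933 to 125231860, minus strand), the tapasin relative, was at 19.1, 18.8, 23.7 and 23.02 CPM in WT and at 44.2, 45.9, 36.6 and 41.9 CPM in miR-21-/- TAMs. It had the lowest level of the 9 genes and the largest log2 fold change, 0.96 (95% interval 0.75 to 1.18, limma adjusted p = 0.000104), which did not stand apart from that of Nlrc5, Tapbp or Tap1. With a pseudocount of 10 its log2 fold change was 0.74. The gene lies within the span of Vamp1, which is on the opposite strand and averaged 11.1 CPM. Tap1, Tap2 and Tapbp lie in the MHC region of chromosome 17, whereas Tapbpl and Nlrc5 lie on other chromosomes.

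Erap1 (chromosome 13, 74639568 to 74693201, plus strand), the ER aminopeptidase, was at 123, 118, 124 and 121 CPM in WT and at 144, 152, 153 and 154 CPM in miR-21-/- TAMs. Both groups were narrow, with CVs of 2.18% and 2.91%, and they did not overlap. Its gene model shares 834 bases with Cast, which is on the opposite strand and averaged 86.7 CPM, so that some reads could be counted for either. For Erap1 the log2 fold change was 0.31 (95% interval 0.21 to 0.42, limma adjusted p = 0.000757), so that the whole interval lay under the fold limit. With the limit on p alone, 6 of the 9 genes were higher, against 4.64% of all tested genes. The same 6 genes were those whose groups did not overlap with miR-21-/- higher, which held for 9.44% of all tested genes.

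The promoter of Erap1 is printed because it was the only one of the 6 that held the core of the interferon-stimulated response element, GAAANNGAA, read on either strand. The window is chr13:74639603-74639902 on the plus strand, and capitals mark 2 overlapping matches on the minus strand, which begin at -9 and -3 counted from the start site. The core was present in 8.56% of the 32851 windows. The GAS letters TTCNNNGAA (8.3% of windows) and the CRE letters TGACGTCA (1.79%) were in none of the 6 windows.

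Erap1 promoter: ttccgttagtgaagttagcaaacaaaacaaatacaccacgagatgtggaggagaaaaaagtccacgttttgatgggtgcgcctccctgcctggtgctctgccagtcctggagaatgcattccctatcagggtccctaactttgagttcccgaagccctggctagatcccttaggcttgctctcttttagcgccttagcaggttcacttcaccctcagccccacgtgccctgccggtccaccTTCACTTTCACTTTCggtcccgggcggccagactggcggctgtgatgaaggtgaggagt

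Calr (chromosome 8, 84841850 to 84846934, minus strand) was at 832, 808, 763 and 761 CPM in WT and at 668, 721, 772 and 732 CPM in miR-21-/- TAMs. Canx (chromosome 11, 50293961 to 50325673, minus strand) was at 505, 486, 467 and 461 CPM in WT and at 384, 439, 475 and 459 CPM in miR-21-/- TAMs. In both genes the groups overlapped, and miR-21-/- replicate 1 was the lowest of the 8 samples. The log2 fold change of Calr was -0.13 (95% interval -0.28 to 0.02, limma adjusted p = 0.152) and that of Canx was -0.13 (95% interval -0.29 to 0.03, limma adjusted p = 0.192). The intervals leave no room for a change of 1.5-fold in either direction under this scaling, but do not show that the genes were equal.

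Pdia3 (chromosome 2, 121413775 to 121438687, plus strand) was at 548, 513, 470.1 and 501 CPM in WT and at 482, 552, 573 and 559.7 CPM in miR-21-/- TAMs. The groups overlapped. Its log2 fold change was 0.09 (95% interval -0.07 to 0.26, limma adjusted p = 0.355). By limma 0 of Calr, Canx and Pdia3 were called, and 0 had an unadjusted p under 0.05.

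The promoters of Calr and Canx are printed because each held an ERSE (ER stress response element), the composite in which CCAAT and CCACG stand 9 bases apart. It was found in 39 of the 32851 windows (0.12%) and in no other of the 6. Capitals mark the ERSE and further CCAAT letters. The Calr window is chr8:84846882-84847181 on the minus strand, with the ERSE on its reverse strand from -162 to -144. The Canx window is chr11:50325624-50325923 on the minus strand, with the ERSE from -145 to -127.

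Calr promoter: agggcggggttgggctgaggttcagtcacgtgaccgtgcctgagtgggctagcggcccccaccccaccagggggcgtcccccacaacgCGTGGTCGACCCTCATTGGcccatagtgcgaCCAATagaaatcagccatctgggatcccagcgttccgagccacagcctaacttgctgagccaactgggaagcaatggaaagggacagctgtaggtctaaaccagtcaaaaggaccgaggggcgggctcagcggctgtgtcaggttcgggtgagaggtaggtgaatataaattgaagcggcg

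Canx promoter: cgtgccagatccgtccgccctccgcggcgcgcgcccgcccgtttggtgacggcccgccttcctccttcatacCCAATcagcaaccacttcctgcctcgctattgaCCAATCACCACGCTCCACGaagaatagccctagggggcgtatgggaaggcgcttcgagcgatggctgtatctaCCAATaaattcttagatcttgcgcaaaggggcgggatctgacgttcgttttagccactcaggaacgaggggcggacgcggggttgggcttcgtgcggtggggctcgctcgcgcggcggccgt

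A match of letters is a description of these windows, not of binding. The windows of Pdia3 and Tapbp each held 2 CCAAT boxes and none of the other motifs.

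**Figure D2:**
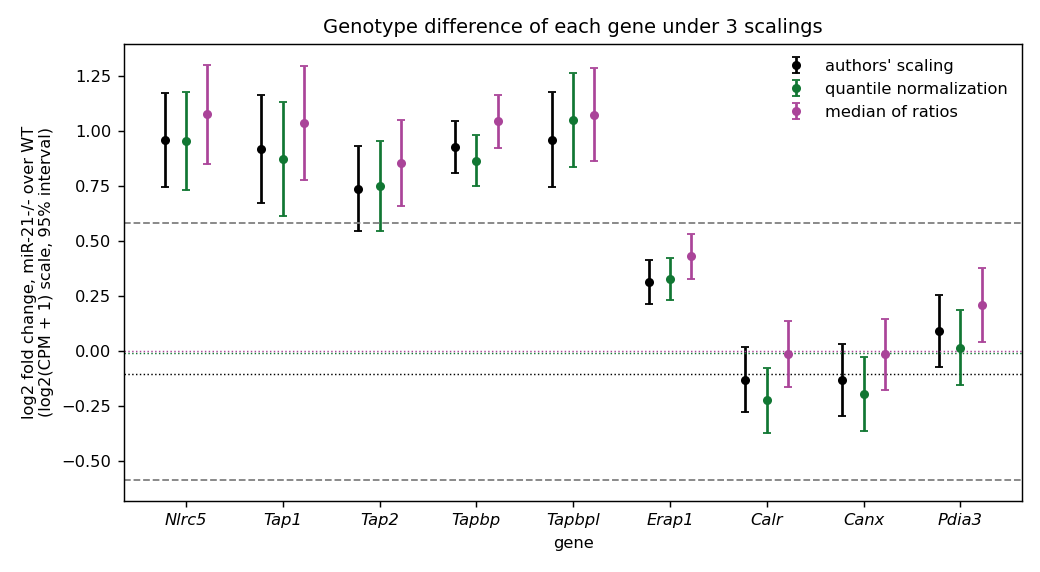
Log2 fold change (miR-21-/- over WT, log2(CPM + 1) scale) of each of the 9 genes with its 95% interval from limma, under the authors' scaling, quantile normalization and the median of ratios. Dashed lines mark a fold change of 1.5 either way and dotted lines the median of all tested genes under each scaling. Nlrc5, Tap1, Tap2, Tapbp and Tapbpl had values above the upper dashed line under all 3 scalings, and Erap1 lay below it.

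No gene of the 9 changed sign with the scaling, but the chaperones moved relative to their small differences. The median log2 fold change of all 13850 tested genes was -0.10, and the median of ratios moved it to 0.0016. Calr and Canx, at -0.13, were thus close to the median gene, and after the median of ratios they were at -0.013 and -0.012, while Pdia3 was at 0.21 (limma adjusted p = 0.0618). After quantile normalization Calr was at -0.22 (limma adjusted p = 0.0290), Canx at -0.20 and Pdia3 at 0.02. Under these scalings Nlrc5, Tap1, Tap2, Tapbp and Tapbpl stayed past the threshold, with log2 fold changes of 0.75 to 1.08.

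To compare genes within each sample, 6 ratios of (CPM + 1) were taken, in which the library scaling cancels except for the added 1. The Tap1 to Tap2 ratio was 1.87, 1.72, 1.70 and 2.01 in WT and 2.03, 2.03, 2.05 and 2.15 in miR-21-/- TAMs. The groups did not overlap, but WT replicate 4 was close to the lowest miR-21-/- sample. The mean log2 ratio was higher by 0.18 in miR-21-/- TAMs (exact permutation test, two-sided, p = 0.0286, adjusted p = 0.0571 over the 6 ratios). The p of 0.0286 is the smallest that 4 samples against 4 allow. The Pdia3 to Calr ratio was 0.617 to 0.659 in WT and 0.722 to 0.766 in miR-21-/- TAMs, a log2 difference of 0.22 with the same p and adjusted p from the exact test. The Tap1 to Calr ratio was 0.179 to 0.280 and 0.373 to 0.497, a log2 difference of 1.05, again with the same p and adjusted p. None of the 6 ratios passed an adjusted p of 0.05, while these 3 had an unadjusted p under 0.05.

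Ratios of the other pairs overlapped between genotypes. The Calr to Canx ratio was 1.63 to 1.66 in WT and 1.59 to 1.74 in miR-21-/- TAMs, with a log2 difference of -0.00050 (exact permutation test, two-sided, p = 1.0). The Tap1 to Nlrc5 ratio was 1.55 to 1.78 and 1.45 to 1.74 (log2 difference -0.04, exact permutation test, two-sided, p = 0.514). The Tapbp to Tapbpl ratio was 9.28 to 11.2 and 9.58 to 11.3 (log2 difference -0.03, exact permutation test, two-sided, p = 0.771). The Calr to Canx pair kept its ratio most narrowly in WT, with an SD of 0.011 in log2.

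**Figure D3:**
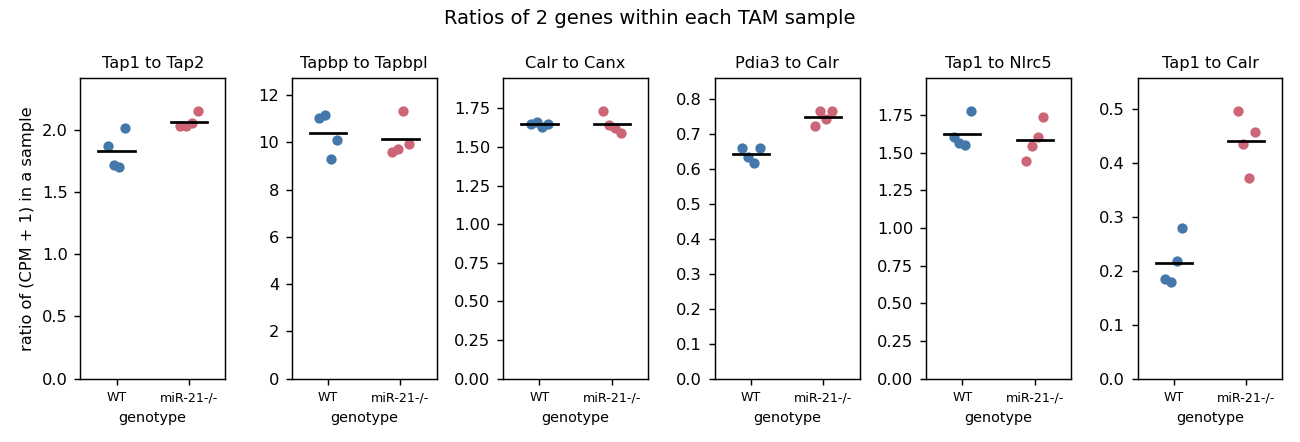
Ratio of (CPM + 1) of a pair of genes in each of the 8 TAM samples, with points for samples and a line for the mean of each genotype; axes start at 0. Tap1 to Tap2, Pdia3 to Calr and Tap1 to Calr did not overlap between genotypes, while Tapbp to Tapbpl, Calr to Canx and Tap1 to Nlrc5 did.

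Levels of different genes were compared as CPM per kb of exon, with exons from GENCODE vM21. The length was the union of all annotated exons of a gene, not that of the expressed transcript, so close orders depend on it. In WT TAMs the order was Calr at 275 CPM per kb, Pdia3 at 162, Canx at 102, Tapbp at 62.8, Tap1 at 30.7, Tap2 at 24.2, Erap1 at 16.6, Nlrc5 at 12.1 and Tapbpl at 9.003 (means, n = 4). The chaperones were thus the most abundant. Only Tap1 (26.2 to 38.8 CPM per kb) and Tap2 (21.4 to 27.7 CPM per kb) overlapped among neighbours in this order. In miR-21-/- TAMs Tapbp, at 119.7 ± 3.73 CPM per kb, stood above Canx, at 93.6 ± 8.42 CPM per kb (SD, n = 4 each). Nlrc5, at 23.6 ± 2.51, stood above Erap1, at 20.7 ± 0.604 CPM per kb, with overlapping samples. Tap1 and Tap2, at 57.8 ± 3.94 and 40.4 ± 2.57 CPM per kb, no longer overlapped.

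Profiles over the 8 samples were compared by the root mean square difference of centred log2(CPM + 1) values. The 5 genes nearest to Nlrc5 among 13849 were Samhd1, a dNTP hydrolase (0.062), Tapbpl (0.081), Lrrc8c, a subunit of volume-regulated anion channels (0.085), Tap1 (0.090) and Dnaaf3, an axonemal dynein assembly factor (0.096). The 5 nearest to Tap1 were the class I heavy chains H2-Q4 (0.057) and H2-T23 (0.058), Coro2a, a coronin (0.088), Psmb9 (0.090) and Nlrc5 (0.090). Tapbp ranked 13 and Tap2 19 from Nlrc5, while Erap1 ranked 809, Pdia3 3120, Calr 7607 and Canx 7933. These ranks share the genotype difference and are a description.

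The steps before and after loading were read from lists of other genes of the pathway. Of 6 genes of the immunoproteasome and its PA28 activator, all 6 were higher and 4 were called, with a median log2 fold change of 0.63 against -0.10 for all tested genes. Of all tested genes 2.89% were called higher. Psme2, a PA28 subunit, had the highest value, from 27.0 ± 2.65 to 48.6 ± 4.27 CPM (means ± SD of 4 samples; log2 fold change 0.83, limma adjusted p = 0.000120). The catalytic subunits Psmb9, Psmb8 (0.66) and Psmb10 (0.59) were called as well, whereas Psme1 (0.47) and Pomp (0.36), a proteasome assembly factor and the lowest of the list, stayed under the fold limit.

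Of 9 genes of class I heavy chains and B2m, all 9 were higher and 6 were called, with a median log2 fold change of 0.68. Among all tested genes 66.8% were lower and 2.89% were called higher. H2-Q6 was the highest (1.08) and H2-M3 the lowest (0.19), and H2-Q7, H2-Q4, H2-T23, H2-T22 and H2-D1 (1.04 to 0.59) were called as well. B2m (0.54, limma adjusted p = 0.00157) and H2-K1 (0.51, limma adjusted p = 0.00526) were not called, and are named after their values were seen. Reads of the heavy chain paralogs can be shared. When samples were dropped singly, the fits without WT replicate 1, WT replicate 3 or miR-21-/- replicate 1 called 2 of the 9, those without WT replicate 2 or miR-21-/- replicate 2 called 3, and that without WT replicate 4 called 8. With no filter on low genes 2 were called.

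Of 11 regulators of class I promoters other than Nlrc5, 4 were higher and 7 lower, where 66.8% of all tested genes were lower. Irf1, an interferon-induced transcription factor, had the largest difference and was called, from 121 ± 17.9 to 376 ± 51.7 CPM (means ± SD of 4 samples; log2 fold change 1.63, limma adjusted p = 1.61e-05). The subunits of RFX and NF-Y, on which Nlrc5 assembles at the promoter, were not called, and all 6 are given here, a choice made after their values were seen. Of RFX, Rfxank was the lowest of the list at -0.39 (limma adjusted p = 0.0655), Rfxap was at -0.25 (limma adjusted p = 0.0467) and Rfx5 at -0.11 (limma adjusted p = 0.381). Of NF-Y, Nfya was at -0.30 (limma adjusted p = 0.00498), lower without overlap of the groups and under the fold limit, Nfyb was at 0.17 (limma adjusted p = 0.0620) and Nfyc at -0.11 (limma adjusted p = 0.2999). Groups that did not overlap with miR-21-/- lower were found for 3556 of all 13850 tested genes. With an adjusted p of 0.05 and no fold limit, 3 of the 11 regulators were higher and 3 lower. Over all tested genes these shares were 9.49% and 26.5%. The median of the list was -0.11, or -0.00025 after the median of ratios.

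Erap1 was set beside 10 tested peptidases of the cytosol and endosome, of which 4 were higher and 6 lower, with a median log2 fold change of -0.20 (-0.083 after the median of ratios). Of all tested genes 66.8% were lower. Lap3, leucine aminopeptidase, was the only one called, from 57.6 ± 5.26 to 87.7 ± 13.4 CPM (means ± SD of 4 samples; log2 fold change 0.59, limma adjusted p = 0.00251). Its value was just over the limit, and the call was absent in 6 of the 8 fits that left out 1 sample. Npepps was the lowest at -0.29 (limma adjusted p = 0.00589). At an adjusted p of 0.05 with no fold limit 6 of the 10 were lower, where 26.5% of all tested genes were.

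Calr, Canx and Pdia3 were set beside 17 other genes of glycoprotein folding and quality control in the ER. None of the 17 was called by limma in either direction, 4 were higher and 13 lower, where 66.8% of all tested genes were lower. At an unadjusted p under 0.05 there were 4 higher and 5 lower, against 12.3% and 34.1% of all tested genes. At an adjusted p of 0.05 with no fold limit there were 2 higher and 4 lower, against 9.49% and 26.5%. The median was -0.12, close to that of all tested genes, and 0.00080 after the median of ratios. Erp44, a thiol chaperone, was the highest at 0.27 (limma adjusted p = 0.00701). Erp29 was the lowest, from 125 ± 1.59 to 94.8 ± 1.31 CPM (means ± SD of 4 samples; log2 fold change -0.39, limma adjusted p = 0.000161), under the fold limit. Hspa5, the BiP chaperone, was at 869.7 ± 31.4 and 799 ± 104 CPM (log2 fold change -0.13, limma adjusted p = 0.309).

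**Figure D4:**
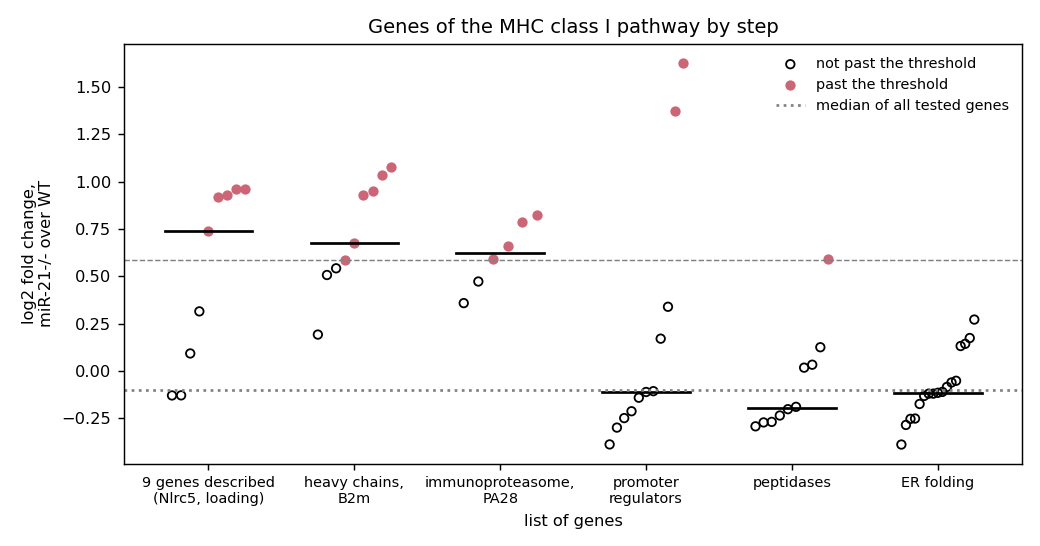
Log2 fold change (miR-21-/- over WT) of the 9 genes described and of 5 lists of other genes of the pathway. Each point is a gene, filled where it passed the threshold. Short lines are list medians, the dotted line is the median of all tested genes and the dashed line a fold change of 1.5. The medians of the heavy chain and immunoproteasome lists were 0.68 and 0.63, while those of the regulators, peptidases and ER folding genes lay between -0.20 and -0.11.

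Whether the loading genes carry sites for the deleted miRNA was looked at in their 3′ UTRs, using the longest one annotated per gene. The mature miRNA is shown with its seed, bases 2 to 8, in capitals.

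mmu-miR-21a-5p: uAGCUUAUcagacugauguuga

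No 3′ UTR of the 9 genes held the 8-base site ATAAGCTA, which 2.31% of 11480 tested genes with a 3′ UTR hold. A site of 7 bases was present in that of Canx (13.0% of tested genes have a site of 7 or 8 bases), at chr11:50295284-50295290 on the minus strand. A match of 6 bases was present in that of Nlrc5 (27.5% of tested genes), at chr8:94526784-94526789 on the plus strand. Both are shown with 8 bases on either side and the match in capitals. The other 7 genes had no match of 6 bases or more in the 3′ UTR searched. Canx, at a log2 fold change of -0.13, was not called. Whether any of the 9 genes is a target of the miRNA was not tested.

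Canx site: tgaaaattATAAGCTctgcatag

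Nlrc5 site: taaagcccTAAGCTcaatgctc

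Canx is on the chromosome of Mir21a, 36.3 Mb from it, and the other 8 genes are on other chromosomes.

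Marker genes of other cells also differed between the genotypes, and their part in the results above was not tested. Summed over 9 T cell markers, the level was 21.8 to 42.6 CPM in WT and 9.97 to 43.3 CPM in miR-21-/- TAMs. Within it Cd8a had the highest log2 fold change (1.28, limma adjusted p = 0.00804) and Cd4 the lowest (-2.35, called). Of the 9, all were tested. The sum over 6 NK cell markers, of which 3 were tested, was 4.99 to 12.6 and 8.64 to 21.7 CPM, with Prf1 the highest (1.16) and Gzma the lowest (0.08), and with Ncr1 at 0.340 and 0.123 CPM. The sum over 8 dendritic cell markers was 17.01 to 29.2 and 21.3 to 46.5 CPM, with Clec9a (1.26, limma adjusted p = 0.00532) and Cd209a (-1.28) at the ends.

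The sum over 5 fibroblast markers was 60.3 to 136 CPM in WT and 9.89 to 44.0 CPM in miR-21-/- TAMs, and Col3a1 (-2.51), Col1a1 and Pdgfra were called lower, with Dcn the highest (-0.85). Over 6 neutrophil markers (5 tested) it was 716 to 1099 and 531 to 699 CPM, with Ly6g (0.31) and Retnlg (-0.81) at the ends. Over 5 B cell markers it was 11.4 to 17.6 and 3.84 to 11.3 CPM, and Cd79b, the only one tested, was called lower (-1.45). Over 5 epithelial markers (3 tested) it was 18.8 to 24.8 and 12.7 to 17.9 CPM, with Krt18 (-0.25) and Cdh1 (-0.42) at the ends and Epcam at 0.0698 and 0.0518 CPM. Over 5 endothelial markers (4 tested) it was 153 to 304 and 203 to 292 CPM, with Vwf (0.29) and Cdh5 (-0.21) at the ends. Among 11 macrophage and sort genes, 4 were higher and 7 lower, where 66.8% of all tested genes were lower. Only Fcgr1 was called (0.75). Csf1r was the lowest (-0.48, limma adjusted p = 0.00538). Adgre1 was also lower, without overlap of the groups and under the fold limit (-0.38, limma adjusted p = 0.0014).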

How the data were processed

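The authors deposited 1 table of CPM values with 0.0001 added to each, for 8 samples and 53247 genes, with all columns assigned. The submitters' processing notes name STAR, Partek 7.0 and mm10, without roles, and the counting rule and strand are not given in the sources used here. All 37 mitochondrial genes are listed at the minimum. Depth came from the smallest steps between values. Up to 20 reads, 72.4% to 73.5% of values were whole reads (within 0.02), so no count test was run.

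log2(CPM + 1) values were tested by limma 3.58.1 (R 4.3.3; lmFit, then eBayes with its trend option) for the 13850 genes averaging 1 or more per 1e+06 of their column sums, with Benjamini-Hochberg adjustment over all of them. Calls needed an adjusted p of no more than 0.005 together with a change of more than 1.5-fold, limits taken from the study. The fit was tested on simulated data. Ratios used exact permutation tests. The members, lists and tests were chosen with earlier results of these data known. Genes named were the 9 members, the extremes and the called genes of each list, and the 5 nearest profiles to Nlrc5 and Tap1, apart from some results that are not reported here. Promoters and the miRNA are from RefSeq (GRCm38.p6), and 3′ UTRs and exons from GENCODE vM21. Alternatives are listed in the closing section. Figures were drawn with matplotlib 3.10.9.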

Additional observations from a re-analysis of the deposited data

How the results depend on the processing

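Alternatives were pseudocounts of 0.1 and 10, no filter or one of 5 per 1e+06, quantile normalization, the median of ratios, eBayes without the trend, arrayWeights, the replicate block, leaving out each sample and other limits. The 5 calls among the 9 genes were the same in all of them, and the other 4 genes gained none, except Erap1 when the fold limit was dropped. Over the alternatives the adjusted p from limma was at most 0.00206 for these 5 genes, from 0.000128 to 0.00444 for Erap1 and from 0.0290 to 0.917 for Calr, Canx and Pdia3. Precision is limited by 4 samples per genotype, and all p-values measure the spread between these samples.

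Replicate numbers follow sample order, and in the miR-21-/- group they do not all match the numbers in the sample titles. These replicate numbers did not pair the samples: deviations of same-numbered samples correlated at -0.14 to 0.22, and 1 of 4 numbers matched best with itself. Pairing by the numbers in the titles was not tested. With the replicate block, which used these assigned numbers, 389 genes were called higher and 533 lower in place of 400 and 586. The 5 members passed with adjusted p from limma of 0.000119 to 0.00117. The permutation within the assigned numbers cannot go below 0.125, and gave 0.125 for the 3 ratios that did not overlap.

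With a pseudocount of 10 the differences in log2 ratio of Tap1 to Tap2 (0.20), Pdia3 to Calr (0.22) and Tap1 to Calr (1.01) reached an adjusted p of 0.0429 by the exact test, and Tapbp to Tapbpl turned from -0.03 to 0.16 with the same adjusted p, as that pseudocount shrinks the low gene, Tapbpl. With 1 sample left out, the differences ranged from -0.089 to 0.0025 for Tapbp to Tapbpl, -0.026 to 0.016 for Calr to Canx and -0.086 to 0.0038 for Tap1 to Nlrc5. The latter was 0.0038 without WT replicate 4 and 0.0017 without miR-21-/- replicate 1. Called genes in these fits numbered 2 to 8 of the heavy chain list and 0 to 1 of the peptidase list. The peptidase list had 0 called genes with a pseudocount of 10, with no filter and without the trend, the heavy chain list had 2 with no filter and 4 without the trend, and the ER folding list had 2 higher and 4 lower at an adjusted p of 0.05 with no fold limit. List medians after quantile normalization were -0.0032 for the regulators and -0.11 for the peptidases. After the median of ratios they were -0.00025 and -0.083, and 0.00080 for ER folding. The peptidase median was -0.15 with a pseudocount of 10. The cause was not tested. Over all genes, dropping the fold limit gave 642 higher and 1340 lower, and 1314 and 3668 at an adjusted p of 0.05. The pseudocount of 10 gave 251 higher and 201 lower, and no filter gave 291 and 290 of 30454 genes. The share of higher calls rose after the median of ratios (528 higher, 348 lower) and quantile normalization (491 and 337).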
